A study of Mus musculus with 28 samples.

Results

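Complement and coagulation are the main protein cascades of blood plasma that the liver makes, and the messenger RNA of 40 of their genes was followed here in mouse livers treated with bile acid receptor agonists. The 40 genes were the liver-made factors and inhibitors of both cascades, without the fibrinogen chains, and were listed by name, with earlier results of these data known. All 40 were present among the 21935 genes of the count table and all 40 were among the 12580 genes that passed the filter on low counts. Of the 40, 22 belonged to complement and 18 to coagulation and its brakes.

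The livers came from 28 male mice of the strain B6.V-Lepob/JRj, which lack leptin and become obese. The AMLN diet, which is high in fat, fructose, and cholesterol, was given to every mouse, vehicle mice included, for 14 weeks before dosing and throughout the 2 weeks of daily oral dosing. They were 5 weeks old on arrival. The 10 vehicle mice received carboxymethylcellulose, 9 mice received obeticholic acid (OCA) at 30 mg/kg, and 9 received INT-787 at 30 mg/kg. OCA is a bile acid analog that activates the farnesoid X receptor (FXR), and INT-787 is a derivative of OCA with an added hydroxyl group. No lean mice or mice on chow were analysed here, so a change is a change from the diseased state and not toward or from a healthy one.

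Complement tags microbes and damaged cells for removal. The classical pathway starts with C1, the lectin pathway with mannose-binding lectins and their proteases, and both cleave C4 and C2 to form an enzyme that splits C3. The alternative pathway amplifies C3 cleavage through factors B and D and properdin, and the terminal components C5 to C9 assemble a pore in the target membrane. Coagulation turns prothrombin into thrombin through a chain of proteases, many of which need vitamin K to bind membranes, and antithrombin, heparin cofactor II, and the protein C system restrain it. Hepatocytes secrete most of these proteins, and several of their genes, such as those of kininogen and C3, are known to respond to FXR in cell culture.

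The question was how each drug changed these genes relative to vehicle and where the drugs differed from each other at the same dose and time. Levels are in CPM, that is a gene's reads as a share of all reads of its mouse, scaled to the same fixed total in each mouse and adjusted for library composition. A change is a log2 fold change with its standard error (SE), tested with edgeR's quasi-likelihood test and called where the adjusted p was 0.05 or lower. Here p was adjusted over all 12580 genes. Both drugs were compared with the same 10 vehicle mice, so their comparisons with vehicle are not independent of each other. The data are from whole liver, in which fewer cells of a type and less RNA per cell cannot be told apart.

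The lowest total count of a mouse was 1009593, in vehicle replicate 6, the next was 9313260, and the highest 22421506 (median over mice 14864947). Vehicle replicate 5 stood apart at 2 of 4 genes checked that overlap one of the 40 on the opposite strand. *Zbtb37*, which lies opposite to *Serpinc1* over 2942 bases of exon, was counted at 39.4 CPM there and at 1.73 to 6.83 CPM in the other 27 mice, and *Tardbp*, opposite to *Masp2* over 1817 bases, at 111 CPM against 15.6 to 39.7 CPM. *Slc22a3*, opposite to *Plg*, and *Zbtb12*, opposite to *C2*, lay within the range of the other mice there, at 9.41 and 2.30 CPM. *Masp2*, *Serpinc1*, *C1s1*, *Plg*, *F5*, *C2*, and *Hc* have such overlaps and were also tested without that mouse. Without it the rise of *Plg* with OCA was no longer called (log2 fold change 0.28, adjusted p = 0.0715), *Serpinc1* was called with OCA (0.35, adjusted p = 0.0490), and no other of these 7 genes changed its call in any comparison. Read sharing with near-identical copies makes *C1ra*, *C1s1*, *C4b*, *Kng1*, and *Kng2* uncertain, although the copies *C1rb* and *C1s2* reached at most 0.2 and 0.3 CPM in any mouse.

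Promoters were read for 31 of the 40 genes from RefSeq (build GRCm38.p6), as 250 bases before and 50 after the start. Those of *Kng1*, *C2*, *Masp1*, *Serping1*, *Plg*, *Cfb*, *Cfi*, *C4b*, and *Proc* were not used here. Both strands were searched, and a match describes letters only. AGGTCA, the core letters read by FXR and related nuclear receptors, was found in 13 of the 31 (*C3*, *C6*, *C8b*, *Cfp*, *F10*, *F2*, *F5*, *F7*, *F9*, *Kng2*, *Mbl2*, *Serpind1*, and *Serpinf2*) and in 16.3% of all 32851 promoters. The inverted repeat GGTCANTGACC, in which 2 such cores face each other as FXR with its partner RXR binds them, was in none of the 31 and in 0.0396% of all. GGTCANTGAAC (0.0183% of all), GTTCANTGAAC (0.0274%), and the direct repeat AGGTCANAGGTCA (0.0396%) were likewise in none. Of the letters read by hepatocyte factors, TGACCTTTG (HNF4, 0.478% of all), which overlaps AGGTCA on the other strand, was in *F7* and *F9*, CAAAGTTCA (0.390%) in *Serpind1*, and CAAAGTCCA (0.475%) in none. TTGCNNCAA (C/EBP, 2.08%) was in *C6*, TTGCGCAA (0.183%) in none, and TTCCNGGAA (STAT, 1.15%) in *Pros1*.

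The promoters of 3 genes that changed below are shown, each as the bases before the gene on its own strand with the matched letters in capitals. *F7* (chr8:13025784-13026033, plus strand) and *Serpinf2* (chr11:75439592-75439751, minus strand) rose with both drugs and hold AGGTCA, *F7* on the opposite strand. *Serpind1* also holds it and rose with both. Of the other genes with AGGTCA, *C6* fell with INT-787, and *Cfp*, *F2*, *F5*, and *F9* were called in no comparison. *C8g* and *Klkb1* rose with both drugs and lack AGGTCA in the promoters read. A link between these letters and the changes was not tested. *Pros1* (chr16:62854057-62854306, plus strand) fell with INT-787 and holds TTCCNGGAA. The first capital lies 34 bases before the gene in *F7*, 36 in *Serpinf2*, and 92 in *Pros1*.
F7: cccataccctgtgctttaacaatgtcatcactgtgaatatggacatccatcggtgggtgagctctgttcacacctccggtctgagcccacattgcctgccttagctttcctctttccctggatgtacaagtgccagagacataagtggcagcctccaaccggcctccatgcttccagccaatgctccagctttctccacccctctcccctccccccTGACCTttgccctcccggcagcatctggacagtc
Serpinf2: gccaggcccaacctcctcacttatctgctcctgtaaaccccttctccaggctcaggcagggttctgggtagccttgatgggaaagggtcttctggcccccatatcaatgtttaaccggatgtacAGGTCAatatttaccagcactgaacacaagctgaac
Pros1: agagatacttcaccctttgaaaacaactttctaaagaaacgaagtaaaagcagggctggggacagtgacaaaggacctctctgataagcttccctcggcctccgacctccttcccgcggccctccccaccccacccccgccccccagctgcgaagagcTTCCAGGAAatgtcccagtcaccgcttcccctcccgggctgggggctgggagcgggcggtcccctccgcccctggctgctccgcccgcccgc

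In vehicle livers the genes spanned a wide range of levels. Per kilobase of exon, *C3*, on which all complement pathways converge, was highest at a mean of 1947 CPM per kb, followed by *Vtn* (vitronectin, an inhibitor of the terminal complex) at 1139, *Kng1* (kininogen) at 627, *Plg* (plasminogen) at 474, and *F2* (prothrombin) at 345 CPM per kb. At the low end *F11* (factor XI) was at 11.8, *Masp1* (a lectin pathway protease) at 7.52, *C2* at 6.80, *Cfd* (factor D, also called adipsin) at 3.17, and *Cfb* (factor B) at 0.846 CPM per kb. *Cfb* shares 2246 of its 2825 exon bases, and *C2* 1656 of its 3872, with *Gm20547* on the same strand, so reads could be split or left uncounted there and the low values of both genes are uncertain as levels. Of the 40 genes, 28 were among the 1000 tested genes with the highest mean CPM. Together the 40 genes took from 2.80% to 3.50% of the raw counts in vehicle mice (median 3.20%), 3.18% to 4.56% with OCA (median 3.73%), and 3.09% to 4.06% with INT-787 (median 3.59%), and these ranges overlap. The coefficient of variation between mice had a median over the 40 genes of 18.3% in vehicle, 16.6% in OCA, and 14.1% in INT-787. *Cfd* varied most in each group, at 78.0%, 116%, and 127%.

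**Figure D1:**
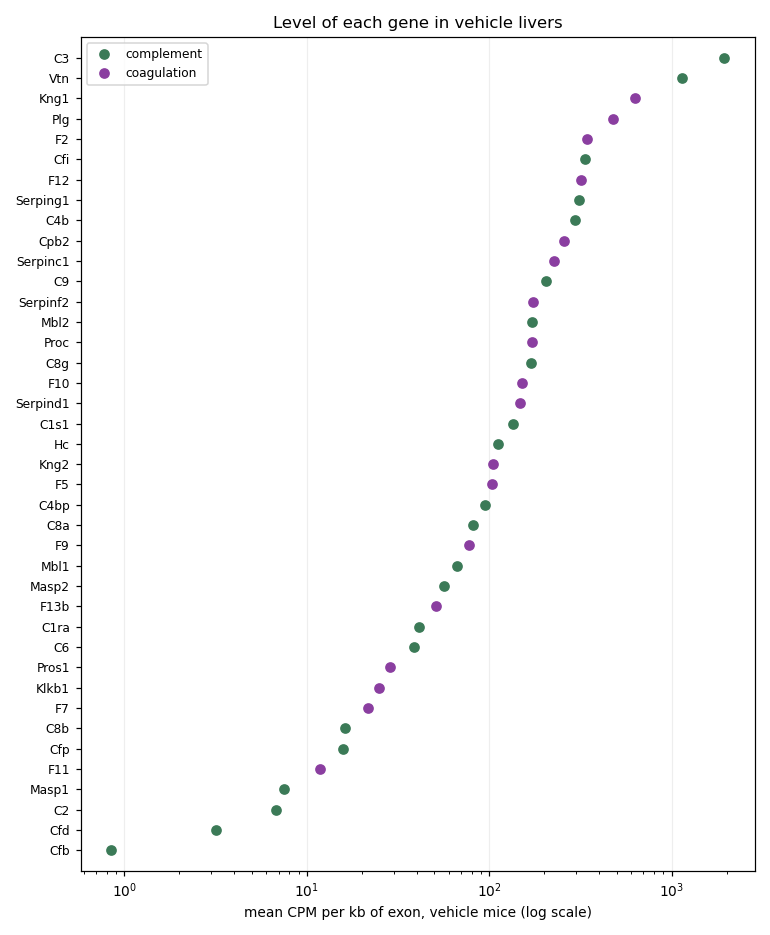
Mean level of each of the 40 genes in the 10 vehicle mice, in CPM per kilobase of exon on a log axis, in order of level, with complement genes in green and coagulation genes in purple. *C3* lies highest at 1947 CPM per kb and *Cfb*, whose exons overlap *Gm20547* on the same strand, lowest at 0.846.

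With INT-787, 13 of the 40 genes rose and 5 fell relative to vehicle (9 rose with upper-quartile normalization and 10 with library totals only, and 5 fell with each). That is 32.5% and 12.5% of the genes, beside 10.2% and 9.48% of all tested genes called in those directions. The rises lay mostly in coagulation (10 of 18 genes rose and 1 fell, against 3 and 4 of the 22 complement genes). The share that fell was close to that of all genes. With OCA, 11 genes rose and 1 fell, or 27.5% and 2.5%, beside 4.15% and 2.45% of all genes (8 rose and 2 fell when counts were scaled by library totals only, and 8 genes in all were called without OCA replicate 9). Of these 11, 7 were coagulation genes and 4 complement genes. The median log2 fold change over the 40 genes was 0.17 with INT-787 and 0.21 with OCA, and over all genes it was within 0.02 of 0 for each drug. Of the 40 genes, 6 were called with both drugs: *C8g*, *F7*, *Klkb1*, *Serpind1*, and *Serpinf2* rose and *Cfd* fell. Another 12 were called with INT-787 and not with OCA, and 6 with OCA and not with INT-787, but the direct comparison of the drugs, which called 2.19% of all tested genes higher and 3.19% lower with INT-787, called only 4 and 2 of these. In all, 14 genes were called in no comparison. Of all 12580 tested genes, 2469 were called with INT-787 and 830 with OCA. How many of all genes were called with both drugs or with only 1 is not given here. The counts of 6, 12, and 6 therefore have no share of all genes beside them.

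**Figure D2:**
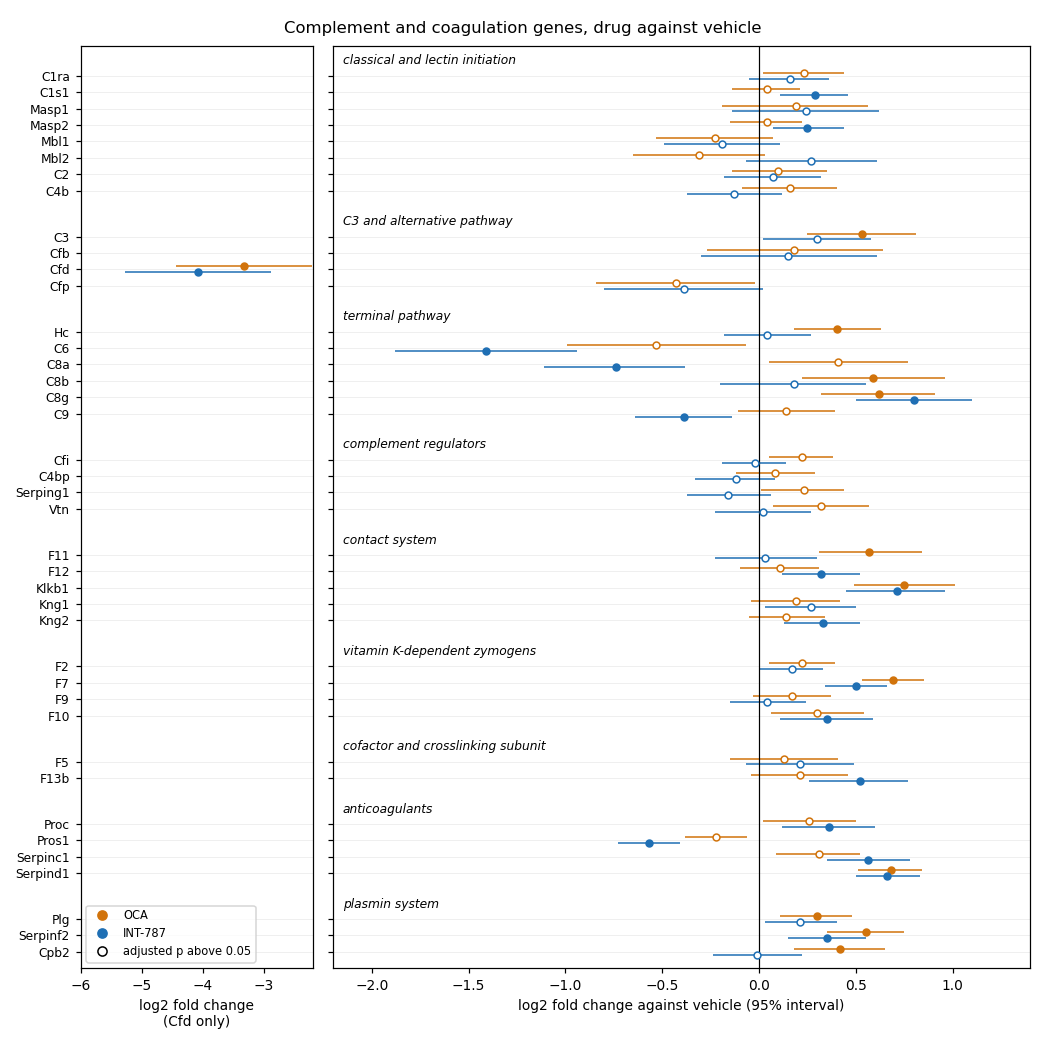
Log2 fold change against vehicle (x axis) of each gene, grouped by role, for OCA (orange) and INT-787 (blue). Points are estimates with 95% intervals, filled where the adjusted p was 0.05 or lower, and *Cfd* is drawn in the left panel on its own scale because its log2 fold changes of -3.33 and -4.08 lie far below those of the other 39 genes.

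Among the 8 genes that start the classical and lectin pathways, 2 rose with INT-787 and none was called with OCA. The 2 were 25% of the list, beside 10.2% of all tested genes, and with OCA 4.15% of all genes rose and 2.45% fell. Neither of the 2, *C1s1* and *Masp2*, was called between the drugs (adjusted p = 0.0975 and 0.184). *C1s1*, the C1 protease that cleaves C4, was at 349 to 473 CPM in vehicle mice (median 427), 328 to 556 with OCA (median 438), and 452 to 624 with INT-787 (median 518). The INT-787 mice overlapped the vehicle mice only at the top of the vehicle range. Its log2 fold change was 0.29 (SE 0.09, adjusted p = 0.0178) with INT-787 and 0.04 (SE 0.09, adjusted p = 0.895) with OCA. With library totals only the rise of *C1s1* with INT-787 was 0.19 (adjusted p = 0.106). *Masp2*, the lectin pathway protease that cleaves C4 and C2, was 187 ± 20.7 CPM in vehicle (SD, n = 10) and 223 ± 24.6 with INT-787 (SD, n = 9). Its rise of 0.25 (SE 0.09, adjusted p = 0.0457) lay at the threshold and was lost in 15 of 28 fits that each left out 1 mouse.

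The mannose-binding lectins recognise sugars on microbes. *Mbl2* was at 120 to 250 CPM in vehicle mice (median 192), 106 to 212 with OCA (median 157), and 115 to 401 with INT-787 (median 207). All 3 groups overlapped. Neither drug was called against vehicle (0.27, adjusted p = 0.284 with INT-787 and -0.31, adjusted p = 0.331 with OCA), but INT-787 was higher than OCA by 0.58 (SE 0.17, adjusted p = 0.0421). Leaving out single mice ended this call in 11 of 28 fits. *Mbl1* was at 104 ± 33.4 CPM in vehicle (SD, n = 10), *C1ra* at 123 ± 11.9, *Masp1* at 73.9 ± 26.3, *C2* at 26.3 ± 6.47, and *C4b* (C4) at 1689 ± 183. None of these 5 was called in any comparison, with log2 fold changes against vehicle between -0.23 and 0.24.

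*C3* rose with OCA. Vehicle mice had 7539 to 13453 CPM (median 9672), OCA mice 10110 to 20947 (median 15370), and INT-787 mice 9296 to 16934 (median 12444). The OCA mice lay in and above the upper part of the vehicle range, and the INT-787 mice spread between the other two. The log2 fold change was 0.53 (SE 0.14, adjusted p = 0.0124) with OCA and 0.30 (SE 0.14, adjusted p = 0.118) with INT-787, and the drugs were not told apart (INT-787 against OCA -0.23, 95% interval -0.51 to 0.05). The rise of *C3* with OCA was 0.41 (adjusted p = 0.105) when runs of neighbouring sample numbers were fitted as a block. *Cfb* (2.39 ± 0.925 CPM in vehicle, SD, n = 10) and *Cfp*, the gene of properdin, which leukocytes make (27.4 ± 8.92), were not called in any comparison. Without OCA replicate 2, the mouse with the highest *Cfp* among those given OCA, *Cfp* was called lower with OCA (-0.67, adjusted p = 0.0132), whereas with all mice it was at -0.43 (adjusted p = 0.240).

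*Cfd*, the protease that activates factor B and a product mainly of fat cells, showed the largest change of the 40 genes with either drug, from a low level. The counts were 8 to 90 in vehicle mice, 0 to 15 in OCA mice, and 0 to 7 in INT-787 mice, with 1 OCA mouse and 4 INT-787 mice at 0. In CPM, vehicle mice ran from 0.477 to 7.36 (median 1.79), OCA mice from 0 to 0.998 (median 0.185), and INT-787 mice from 0 to 0.506 (median 0.114). Of the vehicle mice, 9 lay above every drug-treated mouse and 1 overlapped them. *Cfd* fell by 4.08 on the log2 scale with INT-787 (SE 0.59, adjusted p = 4.59e-06) and fell by 3.33 with OCA (SE 0.55, adjusted p = 9.44e-05), and the difference between the drugs was not resolved (-0.75, 95% interval -2.25 to 0.74). Without OCA replicate 3, which had 15 counts, the log2 fold change with OCA was -3.98. Of 4 marker genes of fat cells, *Adipoq*, *Lep*, and *Retn* were at 0 counts in all 28 mice, and *Plin1* did not exceed 0.157 CPM.

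The 6 genes of the terminal pathway held 3 rises with OCA (*Hc*, *C8b*, and *C8g*) and no fall, and with INT-787 1 rise (*C8g*) and 3 falls (*C6*, *C8a*, and *C9*). In the direct comparison INT-787 was below OCA in 3 of the 6 (*C6*, *C8a*, and *C9*) and above it in none. Of all tested genes 4.15% rose with OCA, 9.48% fell with INT-787, and 3.19% were below OCA under INT-787. With runs of neighbouring sample numbers fitted as a block, *C8a* alone of the 6 was called between the drugs, with *C6* at -0.80 (adjusted p = 0.0682) and *C9* at -0.46 (adjusted p = 0.0611). Over the 6 genes the median log2 fold change was -0.17 with INT-787 and 0.41 with OCA.

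C8 is built of an alpha, a beta, and a gamma chain, and the 3 genes did not move alike. *C8a*, the alpha chain, was at 238 to 385 CPM in vehicle mice (median 284), 201 to 639 with OCA (median 369), and 94.2 to 264 with INT-787 (median 171). INT-787 mice lay mostly below both other groups. *C8a* fell by 0.74 (SE 0.18, adjusted p = 0.00300) with INT-787, was at 0.41 (SE 0.18, adjusted p = 0.196) with OCA, and was lower by 1.15 with INT-787 than with OCA (log2 fold change -1.15, 95% interval -1.53 to -0.78, adjusted p = 0.000155).

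*C8g*, the gamma chain, was at 155 to 467 CPM in vehicle mice (median 236), 322 to 478 with OCA (median 386), and 349 to 556 with INT-787 (median 428). It rose with both drugs, by 0.80 (SE 0.15, adjusted p = 0.000155) with INT-787 and by 0.62 (SE 0.15, adjusted p = 0.00652) with OCA, and vehicle mice overlapped the treated mice only through their 2 highest values. *C8b*, the beta chain, was at 34.4 to 56.5 CPM in vehicle mice (median 38.7), 33.3 to 119 with OCA (median 57.7), and 31.8 to 81.1 with INT-787 (median 45.8). Its rise with OCA of 0.59 (SE 0.18, adjusted p = 0.0471) was lost in 20 of 28 fits that left out 1 mouse, and it was at 0.41 (adjusted p = 0.156) without OCA replicate 3. *C8b* and *C8a* are neighbours on chromosome 4, at chr4:104766317-104804548 on the plus strand and chr4:104815679-104876398 on the minus strand, 11.1 kb apart, while *C8g* is at chr2:25498651-25501719.

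*C6*, the component that binds C5b, was at 88.3 to 212 CPM in vehicle mice (median 131), 37.6 to 137 with OCA (median 103), and 29.8 to 94.5 with INT-787 (median 42.8). INT-787 mice overlapped the vehicle mice only at the lowest vehicle values. Its log2 fold change was -1.41 (SE 0.23, adjusted p = 3.38e-05) with INT-787 and -0.53 (SE 0.23, adjusted p = 0.181) with OCA, and INT-787 was lower than OCA (-0.88, 95% interval -1.35 to -0.40, adjusted p = 0.0207). Without INT-787 replicate 9 the difference between the drugs was -0.81 (adjusted p = 0.0518). *C9*, which polymerises into the pore, was at 375 to 699 CPM in vehicle mice (median 492), 376 to 804 with OCA (median 552), and 298 to 535 with INT-787 (median 380). All groups overlapped. It was lower with INT-787 than with vehicle (-0.39, SE 0.12, adjusted p = 0.0237) and than with OCA (-0.53, 95% interval -0.78 to -0.27, adjusted p = 0.0103). The call against vehicle was lost without INT-787 replicate 2 (-0.34, adjusted p = 0.0506) or vehicle replicate 7 (-0.33, adjusted p = 0.0549).

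*Hc*, the gene of C5, was at 506 to 871 CPM in vehicle mice (median 736), 671 to 1161 with OCA (median 887), and 643 to 844 with INT-787 (median 724). INT-787 mice lay within the vehicle range, and the OCA mice reached above it. *Hc* rose with OCA (0.40, SE 0.11, adjusted p = 0.0215) and was at 0.04 (SE 0.11, adjusted p = 0.829) with INT-787, and the difference between the drugs did not pass the threshold (-0.36, 95% interval -0.59 to -0.13, adjusted p = 0.0587). Leaving out OCA replicate 2, 3, or 9 or vehicle replicate 10 brought the adjusted p of the rise to between 0.0504 and 0.0534, and the call was also lost with library totals only (0.30, adjusted p = 0.138), with 2 groups per fit (adjusted p = 0.077), and without vehicle replicates 5 and 6 (adjusted p = 0.0839). The difference of *Hc* between the drugs was called in 4 of 12 alternative fits, among them DESeq2 (-0.35, adjusted p = 0.0396).

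**Figure D3:**
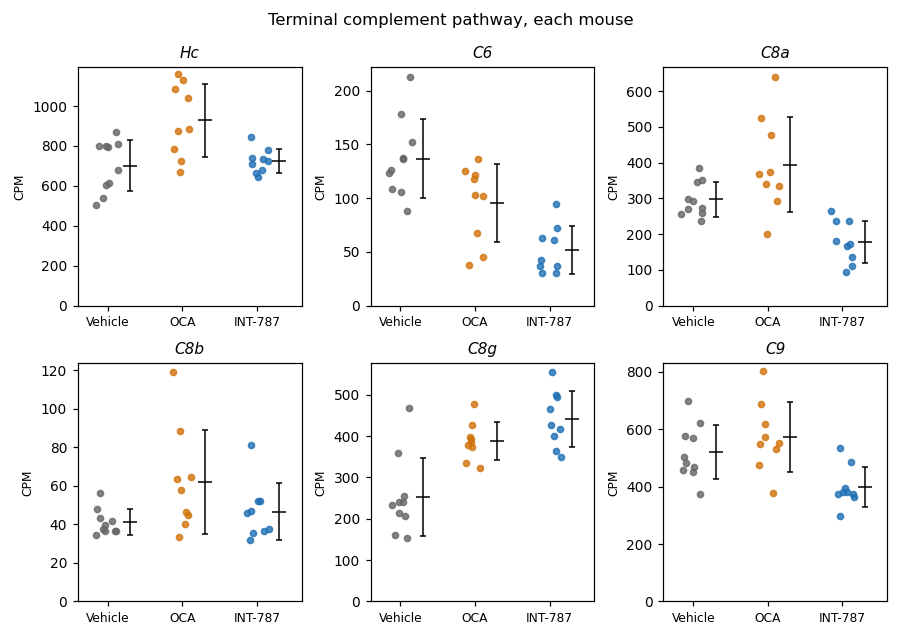
Level (CPM) of the 6 terminal pathway genes in each mouse, with 10 vehicle, 9 OCA, and 9 INT-787 mice, and the mean ± SD beside each group. INT-787 mice sit low for *C6* (29.8 to 94.5 CPM) and *C8a* (94.2 to 264 CPM) and high for *C8g* (349 to 556 CPM).

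None of the 4 complement regulators was called against vehicle. *Serping1*, the C1 inhibitor, which also restrains the contact system, was at 602 to 1027 CPM in vehicle mice (median 690), 661 to 1054 with OCA (median 818), and 478 to 833 with INT-787 (median 650). All groups overlapped, and INT-787 was lower than OCA (-0.38, 95% interval -0.61 to -0.16, adjusted p = 0.0307), a call lost in 6 of 28 fits that left out 1 mouse. The call was also lost with runs of neighbouring sample numbers fitted as a block (adjusted p = 0.0588). *Cfi*, which cleaves C3b and C4b (742 ± 56.0 CPM in vehicle, SD, n = 10), *C4bp*, its cofactor (639 ± 122), and *Vtn* (2312 ± 554) had log2 fold changes between -0.12 and 0.02 with INT-787 and between 0.08 and 0.32 with OCA.

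The contact system starts coagulation on surfaces and releases bradykinin. *Klkb1*, the gene of prekallikrein, was at 100 to 201 CPM in vehicle mice (median 114), 166 to 267 with OCA (median 207), and 159 to 242 with INT-787 (median 221). Vehicle mice overlapped the treated mice only through their 2 highest values. *Klkb1* rose by 0.71 (SE 0.13, adjusted p = 0.000111) with INT-787 and by 0.75 (SE 0.13, adjusted p = 0.000134) with OCA, and the drugs differed by -0.04 (95% interval -0.30 to 0.22). It overlaps *Gm45753* over 2267 bases on the same strand, so reads could be split between the genes.

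*F11*, its neighbour 4.66 kb away (*F11* at chr8:45241174-45262031 and *Klkb1* at chr8:45266689-45294859, both on the minus strand), did not follow it with INT-787. *F11*, which activates factor IX, was at 15.6 to 32.6 CPM in vehicle mice (median 27.2), 28.8 to 56.96 with OCA (median 39.1), and 18.7 to 41.7 with INT-787 (median 26.6). It rose with OCA (0.57, SE 0.13, adjusted p = 0.00470), was at 0.03 (SE 0.13, adjusted p = 0.896) with INT-787, and was below OCA under INT-787 (-0.54, 95% interval -0.81 to -0.27, adjusted p = 0.0138). *F12*, which starts the contact cascade, rose with INT-787 from 624 ± 105 CPM (SD, n = 10) to 779 ± 98.0 (SD, n = 9), by 0.32 (SE 0.10, adjusted p = 0.0215), a call lost with upper-quartile normalization (0.26, adjusted p = 0.0552). *Kng2*, a kininogen gene, rose with INT-787 by 0.33 (SE 0.10, adjusted p = 0.0133), from 285 ± 49.2 to 359 ± 39.2 CPM. *F12* and *Kng2* were at 0.11 and 0.14 with OCA, not called, and the drugs were not told apart for either. *Kng1*, 28.4 kb from *Kng2* on chromosome 16, was at 2039 ± 408 CPM in vehicle and at 0.27 (adjusted p = 0.0986) with INT-787 and 0.19 (adjusted p = 0.39) with OCA.

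*F7*, the factor VII that starts coagulation with tissue factor, was the clearest of the vitamin K-dependent zymogens. It was at 35.0 to 45.6 CPM in vehicle mice (median 40.3), 52.7 to 73.6 with OCA (median 65.6), and 48.0 to 64.7 with INT-787 (median 56.7). Every treated mouse was above every vehicle mouse. *F7* rose by 0.69 (SE 0.08, adjusted p = 2.54e-07) with OCA and by 0.50 (SE 0.08, adjusted p = 1.98e-05) with INT-787, and the drugs differed by -0.19 (95% interval -0.35 to -0.03, adjusted p = 0.169). *F10*, the factor X gene 1498 bases downstream (*F7* at chr8:13026034-13035809 and *F10* at chr8:13037308-13056676, both on the plus strand), was at 411 ± 86.9 CPM in vehicle (SD, n = 10) and 524 ± 70.3 with INT-787 (SD, n = 9), a rise of 0.35 (SE 0.12, adjusted p = 0.0347) that was lost in 11 of 28 fits that left out 1 mouse. With OCA it was at 0.30 (adjusted p = 0.147). *F2* (1583 ± 191 CPM in vehicle, SD, n = 10) and *F9* (213 ± 28.6), the genes of prothrombin and factor IX, were not called, with log2 fold changes between 0.04 and 0.22.

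*F13b*, the carrier subunit of the clot-crosslinking factor XIII, was at 86.4 to 156 CPM in vehicle mice (median 136), 112 to 208 with OCA (median 144), and 146 to 248 with INT-787 (median 193). It rose with INT-787 by 0.52 (SE 0.12, adjusted p = 0.00299), and INT-787 mice overlapped the vehicle mice only near the top of the vehicle range. With OCA it was at 0.21 (SE 0.12, adjusted p = 0.379), and the drugs differed by 0.30 (95% interval 0.04 to 0.56, adjusted p = 0.172). *F5*, the cofactor of factor X, was at 773 ± 172 CPM in vehicle (SD, n = 10) and was not called (0.21 with INT-787 and 0.13 with OCA).

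The 4 anticoagulant genes were called with INT-787, 3 of them up and 1 down, beside 10.2% and 9.48% of all tested genes. *Serpind1*, the gene of heparin cofactor II, a thrombin inhibitor, was at 290 to 361 CPM in vehicle mice (median 312), 430 to 689 with OCA (median 505), and 460 to 585 with INT-787 (median 503). Vehicle and treated mice did not overlap. It rose by 0.66 (SE 0.08, adjusted p = 2.10e-07) with INT-787 and by 0.68 (SE 0.08, adjusted p = 4.76e-07) with OCA, and the drugs differed by -0.01 (95% interval -0.18 to 0.15).

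*Serpinc1*, the gene of antithrombin, was at 1362 to 2913 CPM in vehicle mice (median 1800), 2081 to 2672 with OCA (median 2427), and 2289 to 3366 with INT-787 (median 2883). It rose with INT-787 by 0.56 (SE 0.11, adjusted p = 0.000258), and was at 0.31 (SE 0.11, adjusted p = 0.0889) with OCA. Vehicle mice overlapped the treated mice only through their 2 highest values. These came from vehicle replicates 5 and 10, the same 2 mice as for *C8g* and *Klkb1*, so the 3 overlaps are not independent of each other. *Proc*, the gene of protein C, rose with INT-787 by 0.36 (SE 0.12, adjusted p = 0.0308), from 427 ± 118 CPM (SD, n = 10) to 548 ± 65.5 (SD, n = 9). Leaving out single mice ended this call in 8 of 28 fits, upper-quartile normalization ended it (0.30, adjusted p = 0.0715), and without vehicle replicate 10, the highest vehicle mouse, it was 0.48 (adjusted p = 0.000934).

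*Pros1*, the gene of protein S, the cofactor of protein C, went the other way. It was at 84.9 to 138 CPM in vehicle mice (median 122), 87.6 to 114 with OCA (median 101), and 74.2 to 87.2 with INT-787 (median 79.2). Every INT-787 mouse was below every OCA mouse and overlapped the vehicle mice only at the bottom of the vehicle range. *Pros1* fell by 0.57 (SE 0.08, adjusted p = 3.14e-06) with INT-787, was at -0.22 (SE 0.08, adjusted p = 0.0935) with OCA, and lay below OCA under INT-787 (-0.34, 95% interval -0.51 to -0.18, adjusted p = 0.00903). With OCA, *Pros1* was called lower in 5 of 12 alternative fits (-0.32 to -0.24), among them DESeq2 (-0.24, adjusted p = 0.0306). Protein S is also made by other cells of the liver, among them endothelial cells, whose 6 marker genes had a summed level of 153 to 314 CPM in vehicle mice (median 217) and 108 to 238 with INT-787 (median 190). With OCA, under which *Pros1* was higher than under INT-787, it was 145 to 220 CPM (median 172). Of these 6, *Cdh5* (-0.34) and *Pecam1* (-0.33) fell with INT-787, and the median log2 fold change of the 6 was -0.33 under INT-787 and -0.30 under OCA, and -0.01 for INT-787 against OCA. Their part in the change of *Pros1* was not tested.

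The 3 genes of the plasmin system, which dissolves clots, were called higher with OCA, and 1 of them with INT-787, beside 4.15% and 10.2% of all tested genes. *Serpinf2*, the plasmin inhibitor alpha-2-antiplasmin, was at 308 to 478 CPM in vehicle mice (median 386), 495 to 769 with OCA (median 580), and 393 to 651 with INT-787 (median 545). Every OCA mouse was above every vehicle mouse, and INT-787 mice overlapped both. It rose by 0.55 (SE 0.10, adjusted p = 0.000275) with OCA and by 0.35 (SE 0.10, adjusted p = 0.0103) with INT-787, the latter lost with library totals only (0.26, adjusted p = 0.0557), and the drugs differed by -0.20 (95% interval -0.41 to 0.00). *Cpb2*, which encodes a carboxypeptidase that slows clot lysis, was at 290 to 566 CPM in vehicle mice (median 396), 456 to 723 with OCA (median 534), and 291 to 485 with INT-787 (median 405). It rose with OCA (0.42, SE 0.11, adjusted p = 0.0208), was at -0.01 with INT-787 (SE 0.11, adjusted p = 0.964), and lay below OCA under INT-787 (-0.43, 95% interval -0.67 to -0.19, adjusted p = 0.0256). Without OCA replicate 9, both calls were lost (0.36, adjusted p = 0.0573, and -0.37, adjusted p = 0.0558). *Plg* rose with OCA from 1758 ± 196 CPM (SD, n = 10) to 2162 ± 368 (SD, n = 9), by 0.30 (SE 0.09, adjusted p = 0.0426), a call lost in 13 of 28 fits that left out 1 mouse.

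**Figure D4:**
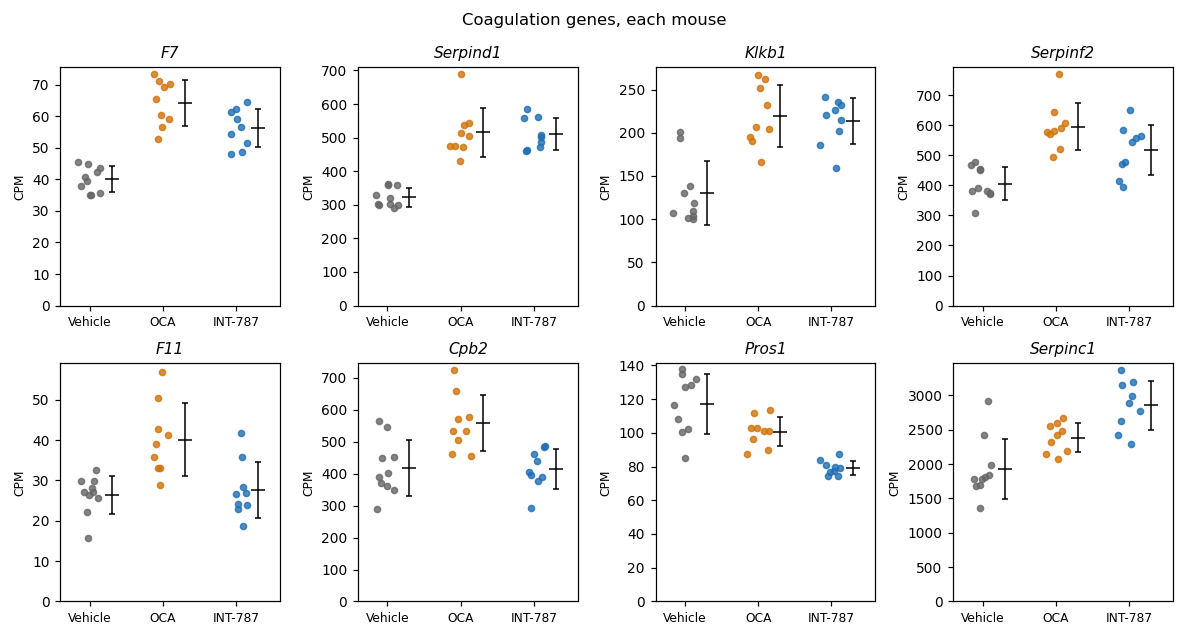
Level (CPM) of 8 coagulation genes in each mouse, with 10 vehicle, 9 OCA, and 9 INT-787 mice, and the mean ± SD beside each group. *F7* and *Serpind1* are above vehicle in every treated mouse, *F11* and *Cpb2* are higher with OCA, and *Pros1* is lowest with INT-787 (74.2 to 87.2 CPM).

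The 2 drugs were matched in dose and time, so that INT-787 and OCA, which differ by the added hydroxyl group, could be compared directly in all 40 genes. INT-787 was higher in 1 (*Mbl2*, 2.5%, beside 2.19% of all genes) and lower in 7 (17.5%, beside 3.19% of all genes). The 7 were *C8a*, *C6*, *F11*, *C9*, *Cpb2*, *Serping1*, and *Pros1*. Upper-quartile normalization gave 0 higher and 9 lower, and 5 genes in all were called without INT-787 replicate 9. With runs of neighbouring sample numbers fitted as a block, 1 was higher and 4 lower, and *C6*, *C9*, and *Serping1* were no longer called. For the other 32 genes no difference was called, and how tightly each was bounded varied with the gene. The interval was within 0.30 in either direction for *C1ra*, *C2*, *F2*, *F10*, *Klkb1*, *Plg*, and *Serpind1*, and reached a log2 difference of -0.79 for *C8b* and -2.25 for *Cfd*.

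**Figure D5:**
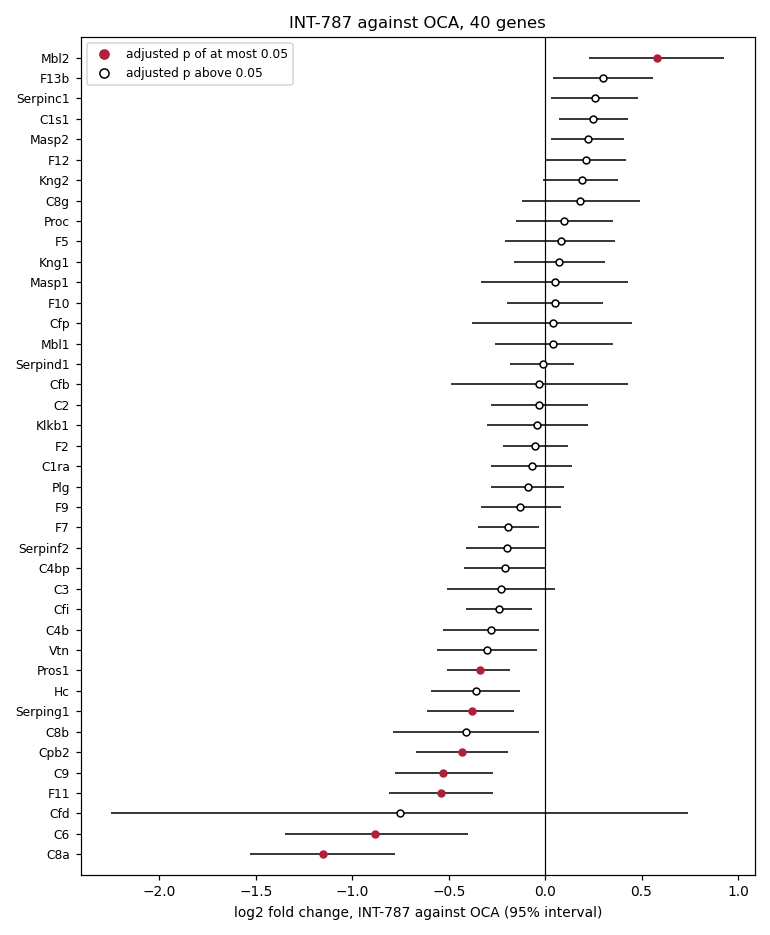
Log2 fold change of INT-787 against OCA (x axis) with its 95% interval for each of the 40 genes in order of size, red where the adjusted p was 0.05 or lower. The 7 genes lower with INT-787 lie between -1.15 (*C8a*) and -0.34 (*Pros1*), and *Mbl2* alone is higher.

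Genes of the same cascades outside the 40 were counted in lists. Of 26 further complement genes tested, 3 rose and 7 fell with INT-787, 2 rose and 1 fell with OCA, and in the direct comparison INT-787 was above OCA in 1 and below it in 6. The 7 that fell with INT-787 (26.9%) stood beside 9.48% of all tested genes and the 6 below OCA (23.1%) beside 3.19%, while the 3 that rose with INT-787 (11.5%, beside 10.2%) and the 1 that fell with OCA (3.85%, beside 2.45%) were near the share of all genes. The 2 that rose with OCA were 7.69% (beside 4.15%) and the 1 above OCA 3.85% (beside 2.19%). Among those called with INT-787, the 5 with the largest change were *C5ar1* (the C5a receptor, -0.76), *C3ar1* (the C3a receptor, -0.62), *C1qb* (-0.61), *Itgax* (a chain of complement receptor 4, -0.59), and *C1qc* (-0.56). Macrophages make C1q and carry these receptors. Of 8 macrophage markers, *Cd68* (-0.69) and *Csf1r* (-0.46) fell with INT-787, *Marco* (1.74, adjusted p = 0.0867) and *Timd4* (0.68, adjusted p = 0.384) were above 0 without being called, and the other 4 were between -0.42 and -0.20. The summed level of the 8 was 565 to 786 CPM in vehicle mice (median 647) and 370 to 795 with INT-787 (median 488). With OCA, *Fcna* (ficolin A, which starts the lectin pathway) fell by 0.79 and *Cpn2*, a subunit of the carboxypeptidase that inactivates C3a and C5a, rose by 0.41. *Fcna* was 1.06 higher with INT-787 than with OCA (adjusted p = 0.000643), and between the drugs the macrophage marker *Marco* was higher (2.63) and *Cd68* lower (-0.61) with INT-787. The part of macrophage RNA in these values was not tested.

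Of 24 further coagulation genes tested, 3 rose and 8 fell with INT-787 and 3 rose and none fell with OCA (6 of the 24 had an unadjusted p under 0.05). The falls with INT-787 were 33.3% of the list, beside 9.48% of all genes, and the rises 12.5% with each drug, near the 10.2% of all genes with INT-787 and above the 4.15% with OCA. The 3 that rose were the same with either drug, *Hrg* (histidine-rich glycoprotein, 0.83 with INT-787 and 0.56 with OCA), *Habp2* (0.50 and 0.41), and *Proz* (protein Z, 0.44 and 0.31). Among the genes called with INT-787, the largest changes besides *Hrg* were *A2m* (-1.35), *Anxa2* (-0.82), *Plat* (tissue plasminogen activator, -0.80), and *Plau* (urokinase, -0.77). INT-787 was lower than OCA in 4 (16.7%, beside 3.19%), *Serpine2* (-1.34), *Plat* (-0.80), *Anxa2* (-0.60), and *Tfpi* (tissue factor pathway inhibitor, -0.41), and higher in none. The fibrinogen chains *Fga* (0.37, adjusted p = 0.0219) and *Fgb* (0.36, adjusted p = 0.0377) rose with OCA, and *Fga* (-0.40, adjusted p = 0.0209) and *Fgg* (-0.40, adjusted p = 0.0438) were below OCA under INT-787. Of 6 genes of the vitamin K cycle and of secretion, *Vkorc1* (the vitamin K epoxide reductase, 0.66), *Furin* (0.38), and *Vkorc1l1* (0.34) rose with INT-787 (50%, beside 10.2% of all genes), *Vkorc1* rose with OCA (0.48, the only rise, 16.7% beside 4.15%), and no fall was called. *Vkorc1* shares 401 of its 840 exon bases with *Gm21974* on the same strand, so reads could be split between the genes.

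Known FXR targets moved with both drugs: *Slc51b* rose by 3.31 with INT-787 and 2.68 with OCA, *Abcb11* by 1.70 and 1.19, and *Nr0b2* by 1.62 and 1.17, while *Cyp8b1* was at -4.28 and -4.11 and *Cyp7a1* at -2.28 and -2.54. Of 7 hepatocyte markers, *Ass1* (1.42 with INT-787 and 1.02 with OCA), *Cps1* (0.99 and 0.89), *Tat* (0.75 and 0.61), and *Alb* (0.45 and 0.62) rose with both drugs. The summed level of the 7 was 61921 to 137324 CPM in vehicle mice (median 90234), 106047 to 200421 with OCA (median 135103), and 96570 to 171005 with INT-787 (median 128105). The other 3 were not called, and *Ttr* was at -0.33 (adjusted p = 0.162) with INT-787. The part of these 4 rises in those of the cascade genes was not tested. With INT-787, *Des* (-0.58) and *Lrat* (-0.55) of the 5 stellate cell markers fell, and none of the 4 tested lymphocyte, 4 cholangiocyte, 2 tested neutrophil, 3 erythroid, or 2 tested platelet markers was called in any comparison.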

How the data were processed

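Liver messenger RNA was measured in 28 mice. The authors prepared stranded libraries, aligned reads to GRCm38 (Ensembl release 89) with STAR 2.5.2a, and deposited raw counts, that is reads per Ensembl gene and mouse without normalization. The counting program and its use of strand are not given in the sources used here. Total counts per mouse ranged from 1009593 to 22421506. Groups came from the sample labels, and 0 columns belonged to other samples. Symbols, positions, and exon lengths came from GENCODE M21.

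Genes kept by filterByExpr (12580) were normalized with TMM and tested with edgeR 4.0.16 (R 4.3.3) by glmQLFit and glmQLFTest in 1 model of the 3 groups, with Benjamini-Hochberg adjustment of p across every tested gene. DESeq2 1.42.0, which the study used, and limma 3.58.1 (voom) were alternatives, with other normalizations, filters, thresholds, blocks, and each mouse left out in turn. The test was tried on simulated data. Summaries used Python 3.11.15 with pandas 2.3.3. The labels name each mouse as a separate sample. The 40 genes and all lists were chosen with earlier results of these data known. Every one of the 40 genes is named, those with an adjusted p of at most 0.05 with full statistics, and from other lists up to 5 called genes per comparison. Some items are not reported here.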

Additional observations from a re-analysis of the deposited data

Results flagged for a closer look

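In 13 of 120 sets of values (40 genes in 3 groups), the highest or lowest mouse stood far from the rest of its group by Dixon's criterion, which chance alone meets in about 1 of 20 sets. INT-787 replicate 8 was the mouse concerned in 4 of them. It was highest for *C1s1* (624 CPM, next 526.4) and *C8b* (81.1 CPM, next 52.4), and lowest for *Masp1* (44.3 CPM, next 78.5) and *F5* (669 CPM, next 850). INT-787 replicate 1 was lowest for *C1ra* (79.9 CPM, next 124), and INT-787 replicate 5 was lowest for *Masp2* (168 CPM, next 209).

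OCA replicate 3 was highest of its group for *Cfd* (0.998 CPM, next 0.373) and *C4bp* (952 CPM, next 709). Among the other OCA mice, replicate 2 was highest for *Cfp* (45.4 CPM, next 21.4), replicate 8 for *C2* (37.4 CPM, next 29.1), and replicate 9 for *Serpind1* (689 CPM, next 543). Vehicle replicate 10 was highest for *Cfp* (50.1 CPM, next 32.9) and *Proc* (717 CPM, next 502). Vehicle replicate 6, which had the lowest total count, was among them 0 times. Without vehicle replicate 10, *Proc* was called with both drugs (0.48, adjusted p = 0.000934 with INT-787, and 0.36, adjusted p = 0.0236 with OCA).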

How the results depend on the processing

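With INT-787, OCA, and in the direct comparison, 18, 12, and 8 of the 40 genes were called. With the stricter threshold of 0.01 for the adjusted p the counts were 10, 7, and 2, and with a log2 fold change of at least 0.5 in either direction 10, 9, and 5. Leaving out each mouse gave 15 to 19, 8 to 14, and 5 to 9 calls, lowest without OCA replicate 9 for OCA (8) and without INT-787 replicate 9 for the direct comparison (5). No called gene changed direction under any alternative run. Blocking on runs of neighbouring sample numbers left 5 calls between the drugs, ending those of *C6*, *C9*, and *Serping1* (adjusted p from 0.0588 to 0.0682), and left 9 of 12 with OCA, ending those of *C3*, *C8b*, and *Plg* (adjusted p from 0.105 to 0.182), and 17 of 18 with INT-787, ending that of *Masp2*. With library totals only, OCA gave 8 higher and 2 lower in place of 11 and 1, and with upper-quartile normalization the direct comparison gave 0 higher and 9 lower in place of 1 and 7. With only 2 groups per fit, OCA gave 8 calls, 7 of them higher. The gene lower with OCA (*Cfd*) became 2 genes, *Pros1* being the other, with upper-quartile normalization, DESeq2, the replicate block, or without vehicle replicates 5 and 6, and 0 with the filter of 10 counts in every mouse, which removes *Cfd*. The gene higher with INT-787 than OCA (*Mbl2*) became 0 with limma, 2 groups per fit, or the replicate block, and 2 genes with DESeq2.

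With the replicate number as a replicate block the counts were 19, 15, and 7. Same-numbered mice of different groups had correlations of deviations from their group means of -0.258 to 0.504 (median 0.1004, other pairs 0.00293), over 0.1 in 14 of 27 pairs, and 9 of 28 mice correlated best with a mouse of their own number. For mice of the same run of sample numbers the median was 0.141 (-0.208 to 0.504, other pairs -0.0104). The labels name no shared source for the numbers, and the main results carry no block. Correlations of single pairs vary too widely to show that no such grouping was there, and the counts with each block are given above.

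Calls kept under every alternative fit that tested the gene and every mouse left out were 11 of 18 with INT-787 (*C6*, *C8a*, *C8g*, *Cfd*, *F13b*, *F7*, *Klkb1*, *Kng2*, *Pros1*, *Serpinc1*, and *Serpind1*), 7 of 12 with OCA (*C8g*, *Cfd*, *F11*, *F7*, *Klkb1*, *Serpind1*, and *Serpinf2*), and 3 of 8 between the drugs (*C8a*, *F11*, and *Pros1*). *Masp2* and *C8b* were lost under 7 and 9 of 12 alternative fits, *Plg* under 8, and *Mbl2* under 4. *Serping1* was lost without OCA replicate 2 or 8 or INT-787 replicate 3, 5, 6, or 9 (adjusted p up to 0.063). Calls were gained without vehicle replicate 10 with OCA for *Serpinc1* (0.37, adjusted p = 0.0137), *Vtn* (0.40, adjusted p = 0.022), and *Pros1* (-0.28, adjusted p = 0.0108), with INT-787 for *Kng1* without vehicle replicate 5 or 10 (0.32 in each), and between the drugs for *C1s1* without OCA replicate 3 (0.30, adjusted p = 0.0276) and *Hc* without OCA replicate 6, 7, or 8 (-0.41 to -0.39). *Cfd* and *Cfb* had few counts in each mouse, and the part of the overlap of *Cfb* with *Gm20547* in that was not tested. The cause of the losses was not tested.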

Other observations

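Of the 40 genes, 6 pairs are neighbours less than 100 kb apart. *F7* and *F10* both rose with INT-787 (0.50 and 0.35), and *C1ra* and *C1s1*, 6.90 kb apart, were at 0.16 (not called) and 0.29 (called). *Kng2* and *Kng1* were at 0.33 (called) and 0.27 (not called). *C8b* and *C8a* were at 0.18 (not called) and -0.74 (called) with INT-787 and at 0.59 (called) and 0.41 (not called) with OCA. *F11* and *Klkb1* were at 0.03 (not called) and 0.71 (called) with INT-787 and at 0.57 and 0.75, both called, with OCA. *Cfb* and *C2*, 85 bases apart, were not called with either drug. The difference within a pair was not tested.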
